A study of Mus musculus with 12 samples.

Results

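The enzymes that modify, conjugate and clear drugs and other foreign compounds were followed by family in normal mouse colon and in tumours grown in the colon from edited colonic organoids. The members were the cytochrome P450 genes of families 1 to 4 (Cyp), the carboxylesterases (Ces), the UDP-glucuronosyltransferases (Ugt), the glutathione S-transferases (Gst) and the sulfotransferases (Sult). They were chosen by gene symbol and by a minimum of 10 reads summed over the 12 libraries, without regard to group. Of 24054 genes in the files, 154 carried a symbol of these families. The pseudogene Ces2d-ps was left out, and 52 symbols had fewer than 10 reads, 35 of them none, which left 101 members: 45 Cyp, 15 Ces, 12 Ugt, 21 Gst and 8 Sult genes. Ces3b and Ugt1a2 entered with 10 reads each, while Cyp1a1 and Sult1c1 were left out with 8.

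There were 3 groups of 4 libraries, all from mice of the immunodeficient NSG strain. The normal group (N) was wild type colon taken next to the tumours. The BT-T tumours had the genotype BrafV600E;Tgfbr2-/-, an activated Braf kinase with loss of a TGF-beta receptor. The BTPRZ-T tumours had the genotype BrafV600E;Tgfbr2-/-;Rnf43-/-/Znrf3-/-;p16 Ink4a-/-, which adds the loss of a pair of ubiquitin ligases that restrain Wnt signalling and of a cell cycle inhibitor. Bulk tissue was sequenced, so each tumour library also holds host cells with intact alleles. Whether a group's 4 libraries came from 4 animals is not stated in the labels, nor how many organoid clones each genotype represents. The p-values therefore measure the spread between these libraries, part of which may be technical.

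As background, foreign compounds are typically cleared in steps. Cytochrome P450 enzymes oxidise them and carboxylesterases split their ester bonds, after which glucuronosyl-, glutathione and sulfotransferases attach a charged group that lets transporters carry the product out of the cell. In the colon these enzymes sit mostly in the epithelium, where they also handle bile acids, steroids, fatty acid derivatives and bacterial metabolites. Nuclear receptors and the aryl hydrocarbon receptor set many of their levels.

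Libraries held 15732004 to 26052772 reads in genes. Library N.2 (normal, replicate 2) stood apart from the other normal libraries: ribosomal protein genes took 10.6% of its reads, against 1.52 to 1.87% in N.1, N.3 and N.4, and 14175 genes had a read, against 16152 to 16432. In BTPRZ-T.1 and BTPRZ-T.4, 14697 and 13450 genes had a read, and ribosomal protein genes took 3.50 to 8.76% of the reads of the BTPRZ-T libraries. For the members whose call changed when N.2 was left out, the result without it is given beside the main one. Transcripts of Tgfbr2 (71.1 to 286 CPM in N, 314 to 527 in BT-T, and between 149 and 271 in BTPRZ-T), Rnf43 (at most 74.6 CPM in N and at least 82.9 in BTPRZ-T) and Znrf3 (1.90 to 39.1 CPM in N and 16.7 to 37.4 in BTPRZ-T) were present in the tumours labelled as lacking them. Cdkn2a, the gene of p16 Ink4a, was at 0.230 to 0.355 CPM in N, 8.21 to 15.8 in BT-T, and between 18.8 and 31.4 in BTPRZ-T, the group labelled p16 Ink4a-/-, and its count also takes in the transcript of the other protein of that locus. A gene count does not show whether an allele is edited, and the labels were not checked in this way.

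Levels are given in CPM, the reads of a gene scaled to a common library size, with library sizes adjusted by the trimmed mean of M values. In normal colon the P450, carboxylesterase, glucuronosyltransferase and sulfotransferase families each had a summed level above that of every tumour library. The summed Cyp level was 2309, 2050.4, 2654 and 2031 CPM in N.1 to N.4, 675, 606, 461 and 568 CPM in BT-T.1 to BT-T.4, and 525, 574, 747 and 303 CPM in BTPRZ-T.1 to BTPRZ-T.4. The summed Ces level was 878, 349, 864 and 898 CPM in N, 211, 180.1, 138 and 181 CPM in BT-T, and 109, 118, 134 and 42.1 CPM in BTPRZ-T. Thus the lowest normal library, N.2, still lay above the highest tumour library for Ces, and the 2 tumour groups did not overlap with each other.

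The Ugt sum ranged from 885 to 1228 CPM in N, from 246 to 447 in BT-T and from 172 to 460.4 in BTPRZ-T. For Sult the ranges were 608 to 1509.5 CPM in N, 185 to 400.2 in BT-T, and between 155 and 332 in BTPRZ-T. Glutathione transferases differed from this pattern. Their sum was 1271 to 2410.0 CPM in N, 849 to 1123 in BT-T, and between 924 and 1563 in BTPRZ-T, so that BTPRZ-T overlapped with N, and the highest normal value was that of N.2. Without N.2 the normal Gst sums lay between 1271 and 1330.3 CPM. No test was made on these sums, which describe the libraries.

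**Figure D1:**
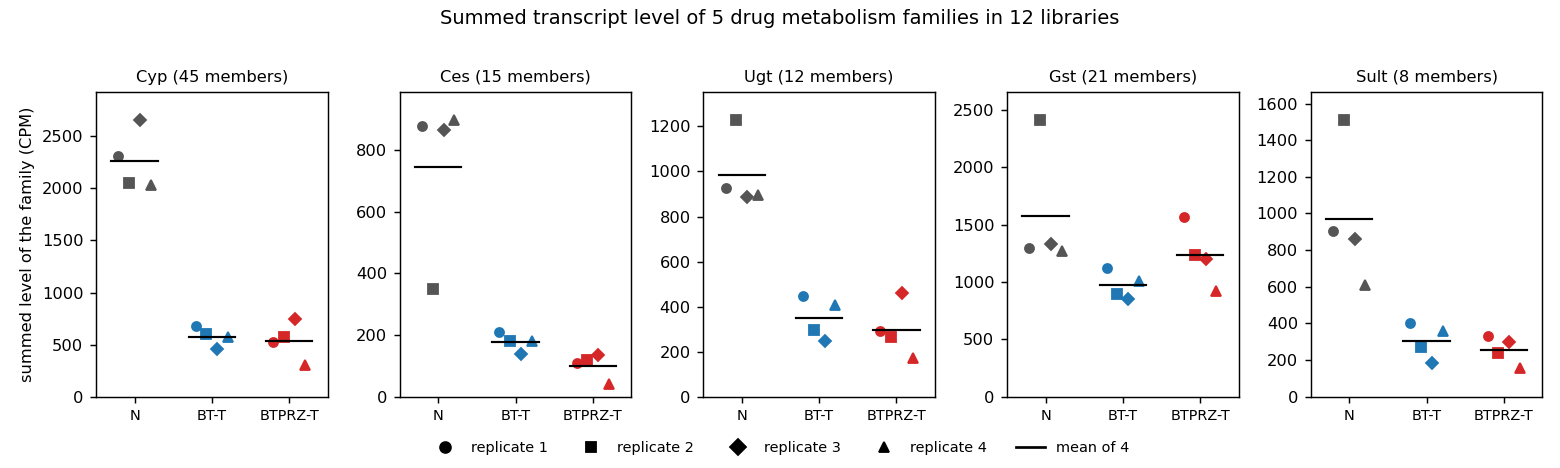
Summed level of the members of each family (y axis, CPM, from 0) in each library of N, BT-T and BTPRZ-T (x axis); symbols mark the replicate number and the bar the mean of 4 libraries. The 4 normal libraries sit above all 8 tumour libraries for Cyp, Ces, Ugt and Sult, while the Gst values of N (1271 to 2410.0 CPM) and BTPRZ-T (924 to 1563 CPM) overlap.

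In bulk tissue, fewer cells of a type and less RNA per cell cannot be told apart. The summed level of 15 absorptive colonocyte markers was also lower in every tumour library, at 8014 to 9452 CPM in N, 1147 to 2839 in BT-T, and between 953 and 2462 in BTPRZ-T. Of these 15 markers, 8 were lower in BT-T, and 9 were lower and 1 higher in BTPRZ-T (edgeR's quasi-likelihood test, adjusted p under 0.05). Each of the 15 was at 1 CPM or more on average in each group. The summed level of 9 general epithelial markers overlapped between groups: 10413 to 13174 CPM in N, 8999 to 10852 in BT-T, and between 7959 and 16360.1 in BTPRZ-T. Fibroblast markers summed to 1329 to 2826 CPM in N, 10712 to 19595 in BT-T, and between 2587 and 11371 in BTPRZ-T. Goblet cell markers summed to 26080 to 57348 CPM in N and 6884 to 14474 CPM over the tumour libraries, and smooth muscle markers to 8102 to 19610 and 588 to 6423 CPM. The 10 hepatocyte markers summed to 18.2 to 51.1 CPM in N, 26.8 to 60.6 in BT-T, and between 17.5 and 26.0 in BTPRZ-T. On average, 4 of the 10 were at 1 CPM or more in both N and BT-T, while BTPRZ-T had 3 such markers. By edgeR's test, 2 of the 4 tested hepatocyte markers were called lower in BTPRZ-T and none was called in BT-T. Among the 10, Cyp7a1 had no read in any library and Alb reached at most 7.46 CPM. The part of these cell types in the results was not tested.

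A gene was called where edgeR's quasi-likelihood test gave an adjusted p (Benjamini-Hochberg, over all 14860 genes that passed the filter on low counts) under 0.05. Of the 101 members, 78 passed that filter. Since a gene that is high in 1 group only also passes, the counts below describe the families and are read against the share of all genes called. In BT-T against N, 5 members were called higher, where 5.67% of all tested genes were called higher, and 18 lower, where 2.9% of all tested genes were called lower. In BTPRZ-T against N, 2 members were called higher and 27 lower, against 5.66% and 6.18% of all tested genes. The median log2 fold change of the tested members was -1.0 in BT-T and -1.18 in BTPRZ-T, beside -0.10 over all genes in each. Both comparisons share the N libraries. Side by side, 17 members were called lower in both, 1 in BT-T alone and 10 in BTPRZ-T alone, while 2 were called higher in both and 3 in BT-T alone. Without N.2, the counts were 4 higher and 22 lower in BT-T, and 6 higher and 35 lower in BTPRZ-T. The shares of all genes above belong to the fit with all libraries. Counts under other settings, here and below, have no such share beside them and are not read as results about the members. Below, a lost call is given mainly by the left-out libraries that ended it. Losses under other settings are given for some genes and gathered at the end.

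**Figure D2:**
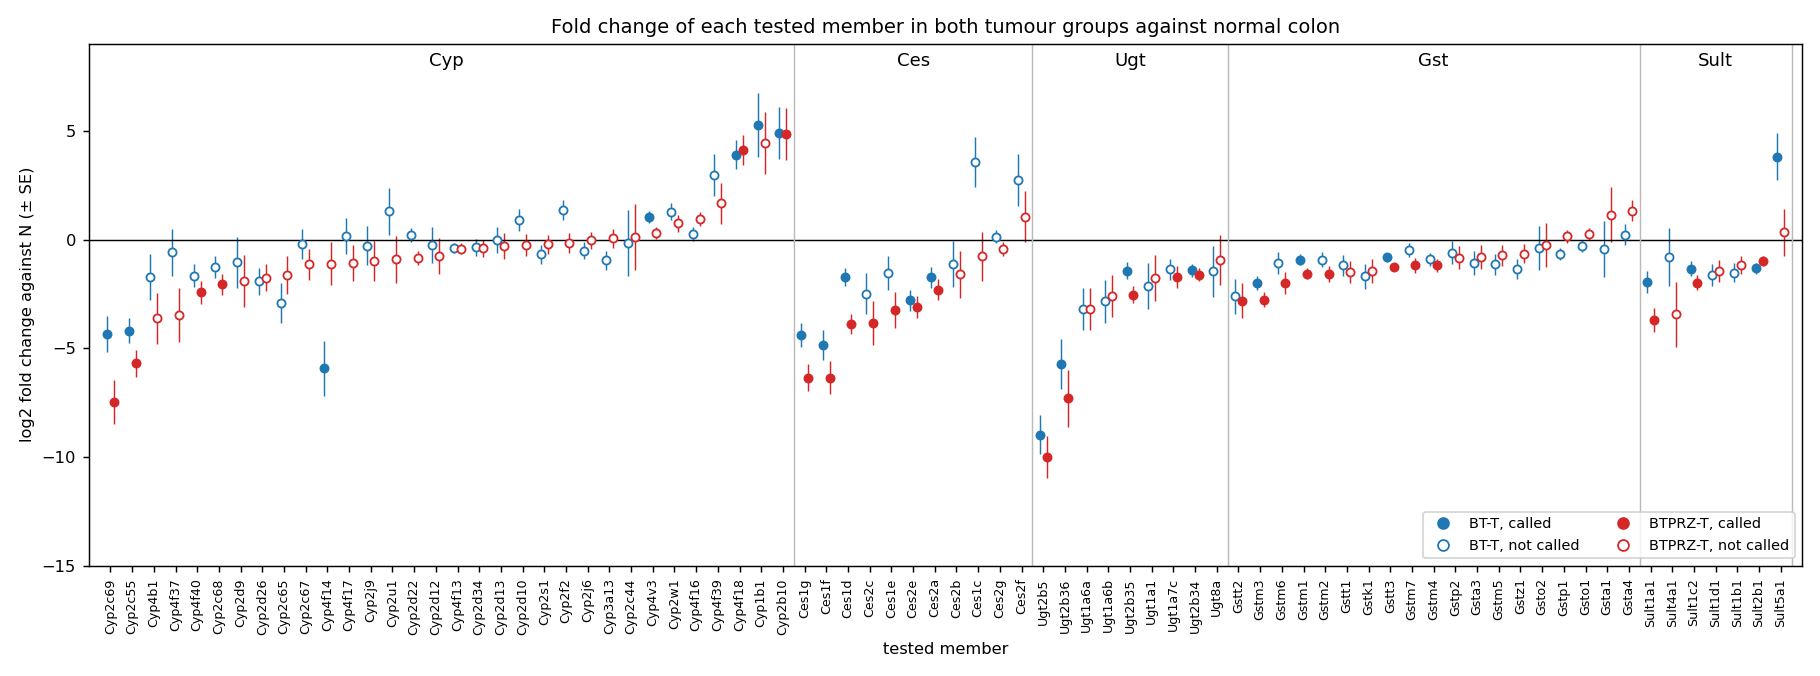
Fold change against N (y axis, log2, ± SE) of each of the 78 tested members (x axis, by family, ordered within a family) in BT-T (blue) and BTPRZ-T (red); filled points were called at adjusted p under 0.05. Most called points lie below 0, from -0.82 for Gstt3 in BT-T to -10.00 for Ugt2b5 in BTPRZ-T, and the called points above 0 are 4 Cyp genes and Sult5a1.

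Among the P450 genes, 32 of 45 members were tested. In BT-T, 4 rose and 3 fell, and in BTPRZ-T 2 rose and 4 fell. The change in the family's total came largely from a single gene. Cyp2c55, which makes epoxide and hydroxyl derivatives of arachidonic acid, lies on chr19:39007019-39042693 (GRCm38, plus strand). Its level was 1518, 1197, 1886 and 1215 CPM in N.1 to N.4, 114, 110.1, 24.5 and 67.8 CPM in the BT-T libraries, and 25.2, 21.7, 54.3 and 11.3 CPM in the BTPRZ-T libraries. Every normal library lay far above every tumour library, while the tumour groups overlapped. Its log2 fold change was -4.20 ± 0.57 (SE, n = 4 per group) in BT-T (adjusted p = 0.00113) beside -5.69 ± 0.62 in BTPRZ-T (adjusted p = 0.000299), and both calls held under every alternative setting and every left-out library. Cyp2c55 made up 64.3% of the Cyp sum in N and 13.7% in BT-T. In BTPRZ-T the leading P450 was Cyp2s1, an extrahepatic P450, with 23.6% of the sum. Per kilobase of transcript, Cyp2c55 stood at 729 CPM per kb in N and 14.1 in BTPRZ-T, and Cyp2s1 at 46.8 in N and 40.1 in BTPRZ-T.

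Cyp2c55 is one of the Cyp2c genes, of which 9 were members and 6 were tested. All but Cyp2c44, which had no matched position, lie in a cluster on chromosome 19. None of the 6 was called higher in a tumour group. Cyp2c69 (chr19:39842814-39886799, minus strand) was at 20.4, 73.8, 16.7 and 12.96 CPM in N, 1.71, 2.24, 0.708 and 1.37 CPM in BT-T, and 0, 0.431, 0.220 and 0 CPM in BTPRZ-T. The groups followed one another without overlap, and N.2 was the highest normal library. The fold change was -4.36 ± 0.84 in BT-T (adjusted p = 0.0069) beside -7.49 ± 1.01 in BTPRZ-T (adjusted p = 0.000885), and it was -3.46 and -6.60 without N.2, still called in both. Its neighbour Cyp2c68 (chr19:39688834-39741054, minus strand) averaged 79.5 ± 69.9 CPM in N, beside 33.3 ± 8.03 in BT-T and 19.02 ± 3.33 in BTPRZ-T (SD, n = 4), and was called in BTPRZ-T (log2 fold change -2.06 ± 0.50, adjusted p = 0.0198). The Cyp2c68 call was lost without BTPRZ-T.2 (adjusted p = 0.0533) or BTPRZ-T.4 (0.0504), and the fold change was -1.28 without N.2. Cyp2c65 averaged 49.5 ± 35.4 CPM in N against 6.51 ± 4.65 in BT-T and 16.1 ± 17.4 in BTPRZ-T, without a call (adjusted p = 0.0679 and 0.271). Cyp2c67 was at 1.34 to 2.96 CPM on average in the groups and was not called.

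The starts of Cyp2c40, Cyp2c67, Cyp2c68 and Cyp2c69 share a stretch of sequence, shown here with that of Cyp2c65 because the cluster holds Cyp2c55 and Cyp2c69, the called P450 genes with the lowest fold changes in BTPRZ-T. In RefSeq's promoter windows (GRCm38.p6, the 250 bases before each gene start), the letters CAAAGTCCA, a form of the site of the hepatocyte nuclear factor Hnf4a, were searched on both strands. They were found in 0.384% of 32851 windows and in 8 of the 85 members with a window: 6 Cyp2c genes, Cyp3a11 and Cyp3a16. The match is in capitals in these stretches, written 5′ to 3′ along the gene's own strand.
Cyp2c65, chr19:39060865-39060923, plus strand: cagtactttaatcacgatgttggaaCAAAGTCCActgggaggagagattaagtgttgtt
Cyp2c67, chr19:39649134-39649192, minus strand: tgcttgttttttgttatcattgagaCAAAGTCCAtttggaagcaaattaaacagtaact
Cyp2c68, chr19:39741145-39741203, minus strand: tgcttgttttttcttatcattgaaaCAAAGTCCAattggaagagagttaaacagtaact
Cyp2c40, chr19:39812826-39812884, minus strand: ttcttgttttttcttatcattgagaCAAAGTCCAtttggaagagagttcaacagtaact
Cyp2c69, chr19:39886811-39886869, minus strand: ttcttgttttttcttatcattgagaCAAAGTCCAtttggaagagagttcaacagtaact
Over these 59 bases Cyp2c40 and Cyp2c69 were identical (100% identity), Cyp2c68 shared 93.2% of bases with them and Cyp2c67 89.8%, while Cyp2c65 shared 50.8 to 59.3% with these 4. The stretch of the sixth gene, Cyp2c70, which overlaps an exon of its own and is not printed, shared 28.8 to 30.5% with the 5 others. Such copies are close paralogs, and single reads could be assigned to the wrong one where their transcripts match. The window of Cyp2c55 did not hold these letters. A match is a description of the sequence and not a site of binding. Hnf4a itself averaged 1033 ± 443 CPM in N, beside 630 ± 120 in BT-T and 539 ± 239 in BTPRZ-T and was not called (adjusted p = 0.313 and 0.176). With N.2 left out it was called lower in BTPRZ-T (-1.21, adjusted p = 0.0123) and not in BT-T (0.0558).

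Of the 8 tested Cyp4f genes, which hydroxylate leukotrienes and long fatty acids, 1 rose and 1 fell in each tumour group. Cyp4f13, Cyp4f16, Cyp4f17, Cyp4f37 and Cyp4f39 were called in neither with all libraries. Without N.2, edgeR's test called Cyp4f13 (-0.57, adjusted p = 0.0365) and Cyp4f17 (-1.49, 0.0286) lower and Cyp4f16 (1.17, 0.0134) higher in BTPRZ-T. Cyp4f14 (chr17:32905070-32917342, minus strand), an intestinal and hepatic leukotriene B4 hydroxylase, was at 37.5, 11.1, 32.9 and 24.8 CPM in N, at 0.418, 0.292, 0.791 and 0.203 CPM in BT-T, and at 6.58, 14.2, 28.8 and 0 CPM in BTPRZ-T. Thus all BT-T libraries were below every normal library, while BTPRZ-T ran from no read in BTPRZ-T.4 to the normal range. Small intestinal enterocyte markers (8 genes, of which 3 were at 1 CPM or more on average in each group) summed to 264, 26.7, 182 and 281 CPM in N, 53.0 to 66.7 CPM in BT-T, and 35.0, 248, 701 and 16.6 CPM in BTPRZ-T, where Fabp1 had no read. N.2 and BTPRZ-T.4 were thus the lowest libraries of their groups for these markers as for Cyp4f14. Going the other way, N.2 and BTPRZ-T.1 lay below every BT-T library for the markers and above every BT-T library for Cyp4f14. The markers' part in the result was not tested. Cyp4f14 fell in BT-T (log2 fold change -5.93 ± 1.25, adjusted p = 0.0117, lost at 0.0505 without BT-T.2 and at 0.109 by limma voom) and was not called in BTPRZ-T (-1.1 ± 1.00, adjusted p = 0.558). Cyp4f40 (chr17:32658900-32676914, plus strand) averaged 88.1 ± 21.6 CPM in N, beside 28.0 ± 6.55 in BT-T and 16.4 ± 10.3 in BTPRZ-T. It fell in BTPRZ-T (-2.43 ± 0.55, adjusted p = 0.0131, lost at 0.0636 when these 2 groups were fitted alone), and in BT-T its value was -1.65 ± 0.53 (adjusted p = 0.0763, and 0.00236 without BTPRZ-T.4).

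Cyp4f18 (chr8:71988482-72009626, minus strand), the leukotriene B4 hydroxylase of mouse leukocytes, rose in both tumour groups. It was at 0.173, 0.0677, 0.354 and 0.202 CPM in N, 3.48, 3.70, 2.37 and 2.74 CPM in BT-T, and 2.97, 3.78, 1.49 and 6.11 CPM in BTPRZ-T, with no overlap between N and either tumour group. Its fold change was 3.89 ± 0.67 (adjusted p = 0.00358) and 4.12 ± 0.67 (adjusted p = 0.00224). Of 10 macrophage markers, 6 were higher in BT-T and 5 in BTPRZ-T, and their sum was 179 to 694 CPM in N, 1189 to 1930.3 in BT-T, and between 396 and 2940.2 in BTPRZ-T. These sums overlapped between N and BTPRZ-T, while the Cyp4f18 levels did not. BTPRZ-T.4 was the highest library both for the sum (2940.2 CPM) and for Cyp4f18 (6.11 CPM). N.2, with the lowest Cyp4f18 level, had the highest normal sum (694 CPM), above BTPRZ-T.2 (656 CPM) and BTPRZ-T.3 (396 CPM). Markers of other leukocytes were not followed. The part of macrophages in the result was not tested.

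Cyp2b10 (chr7:25897620-25926624, plus strand), a classic phenobarbital-inducible P450, had no read in N.1, N.3 and N.4 and 0.338 CPM in N.2, beside 0.627, 4.04, 3.62 and 2.28 CPM in BT-T and 1.03, 2.58, 2.81 and 3.75 CPM in BTPRZ-T. All tumour libraries were above all normal ones. The fold change was 4.91 ± 1.19 in BT-T (adjusted p = 0.0242) beside 4.86 ± 1.19 in BTPRZ-T (adjusted p = 0.0203). The Cyp2b10 call in BT-T was lost when N.1, N.3, N.4, BT-T.2, BT-T.3 or BT-T.4 was left out (adjusted p = 0.0528 to 0.0761), and the call in BTPRZ-T when N.1, N.3 or N.4 was left out (0.0510 to 0.0592). With N and BTPRZ-T fitted alone, edgeR's test also lost the latter call (adjusted p = 0.0936). With N.2 left out no normal read remained, so no size is given for that case.

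Cyp1b1 and Cyp4v3 were the remaining P450 genes called higher, both in BT-T, and are named here after their values were seen. Cyp1b1, which oxidises oestrogens and polycyclic hydrocarbons, was at 0.0675 to 0.345 CPM in N, at 0.453, 12.7, 6.58 and 19.4 CPM in BT-T, and at 0.258, 2.63, 0.386 and 18.5 CPM in BTPRZ-T. Its fold change in BT-T was 5.27 ± 1.46 (adjusted p = 0.0431). That call was lost without any one of BT-T.2, BT-T.3, BT-T.4, BTPRZ-T.2, N.1, N.2, N.3 or N.4 (adjusted p = 0.0598 to 0.105), and by limma voom (0.290). Fibroblast markers, of which 9 of 10 rose in BT-T, were highest in BT-T.4 (19595 CPM) and lowest among the BT-T libraries in BT-T.1 (10712 CPM), as Cyp1b1 was. In BTPRZ-T.1 to BTPRZ-T.4 they summed to 4742, 4334, 2587 and 11371 CPM. BTPRZ-T.4 was thus highest for both, while BTPRZ-T.1, the lowest for Cyp1b1, was not the lowest for the markers. BT-T.1 and BTPRZ-T.4 had similar marker sums beside Cyp1b1 levels of 0.453 and 18.5 CPM. The markers' part was not tested. Cyp4v3 averaged 14.9 ± 5.56 CPM in N and 30.2 ± 2.88 in BT-T (log2 fold change 1.02 ± 0.28, adjusted p = 0.0393), a call lost without any one of the 4 BT-T libraries, BTPRZ-T.2, N.1 or N.3 (adjusted p = 0.0614 to 0.109).

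Cyp1b1 is the best known target of the aryl hydrocarbon receptor among the members with reads, and its start is shown for that reason. The core letters of that receptor's response element, GCGTG, were found on either strand in 28.2% of all windows and in 19 of the 85 members with a window. In Cyp1b1 the match lies on the opposite strand and therefore reads as its complement, in capitals.
Cyp1b1, chr17:79715108-79715162, minus strand: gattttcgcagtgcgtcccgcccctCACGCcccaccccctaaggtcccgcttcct
The receptor gene Ahr was at 12.8 to 34.0 CPM in N and 44.7 to 67.7 CPM in BT-T without overlap, and at 30.8 to 50.3 CPM in BTPRZ-T. It rose in BT-T (log2 fold change 1.11 ± 0.30, adjusted p = 0.0386, lost without any one of BT-T.2, BT-T.3, BT-T.4, BTPRZ-T.2, N.1 or N.3 at adjusted p = 0.0598 to 0.122). Its other classic target, Cyp1a1, had 8 reads in the 12 libraries together. Antioxidant response elements, searched as TGACNNNGC on both strands, were in 10.2% of windows and in 5 members, and TTTATTG, a form of the Cdx2 site, in 4.2% of windows and in 2 members, Cyp2c55 and Cyp4f40.

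By their mean over the 12 libraries, Cyp2s1 and Cyp2j6 were the P450 genes next below Cyp2c55, and neither was called with all libraries. Cyp2s1 averaged 148 ± 65.4 CPM in N, beside 92.2 ± 6.17 in BT-T and 127 ± 68.2 in BTPRZ-T. It was called lower in BT-T (-0.87, adjusted p = 0.00452) without N.2, BTPRZ-T.1 and BTPRZ-T.4. Cyp2j6, an arachidonic acid epoxygenase of the intestine, averaged 82.2 ± 48.5, 57.4 ± 3.91 and 80.7 ± 32.1 CPM. Its fold change in BTPRZ-T was -0.03 ± 0.39 (adjusted p = 0.979), and 0.84 with adjusted p = 0.0045 once N.2, BTPRZ-T.1 and BTPRZ-T.4, where the fewest genes had a read, were left out. None of the 7 tested Cyp2d genes was called in either tumour group with all libraries, with median fold changes of -0.25 and -0.74. Without N.2, edgeR's test called Cyp2d26 lower in BT-T (-2.19, adjusted p = 0.0258) as well as BTPRZ-T (-2.04, 0.0193), and Cyp2d22 lower in BTPRZ-T (-1.01, 0.0263). Cyp4b1 was likewise called lower in BTPRZ-T only once N.2 was left out (-3.81, adjusted p = 0.0255, against -3.63 and 0.0618 with it). Cyp3a13, the Cyp3a member with the most reads, averaged 37.4 ± 11.7 CPM in N, beside 19.4 ± 4.21 in BT-T and 39.1 ± 25.5 in BTPRZ-T and was not called.

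Carboxylesterases hydrolyse ester and amide drugs as well as lipid esters, and 11 of 15 members were tested. By edgeR's test no Ces gene rose, 5 fell in BT-T and 7 in BTPRZ-T, and the median fold change was -1.71 and -3.10. At an unadjusted p under 0.05, 2 Ces genes were higher in BT-T and 0 in BTPRZ-T, while DESeq2 and limma voom each called 1 higher in BT-T. Ces1g (chr8:93302369-93337308, minus strand), a lipid-hydrolysing esterase of liver and intestine, was at 104, 33.0, 225 and 46.4 CPM in N, 4.70, 4.82, 5.95 and 4.00 CPM in BT-T, and 1.03, 1.63, 1.38 and 0.917 CPM in BTPRZ-T. The 3 groups did not overlap, and the lowest normal library, N.2, was still above the highest tumour library. The fold change was -4.39 ± 0.55 in BT-T (adjusted p = 0.000776) beside -6.36 ± 0.62 in BTPRZ-T (adjusted p = 0.000154). Ces1f (chr8:93256236-93279747, minus strand) averaged 60.6 ± 15.7 CPM in N, beside 2.10 ± 0.703 in BT-T and 0.746 ± 0.547 in BTPRZ-T, and had fold changes of -4.84 ± 0.69 and -6.35 ± 0.75 (adjusted p = 0.00137 and 0.000459).

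Ces1d (chr8:93166068-93197838, minus strand), also known as a triacylglycerol hydrolase, gave the single call between the tumour groups. It was at 62.5, 53.0, 94.5 and 34.4 CPM in N, 18.96, 26.1, 7.83 and 21.7 CPM in BT-T, and 2.13, 5.74, 4.85 and 3.84 CPM in BTPRZ-T. Here too the 3 groups lay one below the other. The fold change was -1.71 ± 0.42 in BT-T (adjusted p = 0.0260) beside -3.88 ± 0.46 in BTPRZ-T (adjusted p = 0.000488) against N, and -2.17 ± 0.43 between BTPRZ-T and BT-T (adjusted p = 0.0484). The call in BT-T was lost without BT-T.1, BT-T.3, BT-T.4, N.1 or N.3 (adjusted p = 0.0599 to 0.0720). The call between the tumour groups was lost without BT-T.1, BT-T.2, BT-T.4, BTPRZ-T.1, BTPRZ-T.2, BTPRZ-T.3, N.1 or N.3 (0.0530 to 0.165). Leaving out N.2 gave -2.16 with adjusted p = 0.00877 for the same difference. Ces1e, named after its values were seen, averaged 18.3 ± 4.20, 6.23 ± 2.02 and 1.96 ± 1.52 CPM and fell in BTPRZ-T (-3.23 ± 0.84, adjusted p = 0.0264), with the call lost without BTPRZ-T.2, BTPRZ-T.3 or N.1 (0.0514 to 0.0607).

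Of the 6 tested Ces2 genes, esterases of the intestine and liver, 2 fell in BT-T and 3 in BTPRZ-T, while Ces2b, Ces2f and Ces2g were called in neither. Ces2e (chr8:104926260-104934672, plus strand), the leading carboxylesterase of N, was at 281, 94.6, 218 and 244 CPM in N, 32.8, 33.0, 26.6 and 27.9 CPM in BT-T, and 21.9, 35.7, 33.5 and 6.37 CPM in BTPRZ-T. The tumour groups overlapped with each other and lay below all normal libraries, with fold changes of -2.80 ± 0.48 (adjusted p = 0.00362) and -3.10 ± 0.48 (adjusted p = 0.00185). Ces2a (chr8:104734003-104741634, plus strand) was at 135, 29.4, 91.4 and 232 CPM in N, so that N.2 fell within the range of BT-T (26.4 to 46.0 CPM) and of BTPRZ-T (16.5 to 30.0 CPM). It was called in BT-T (-1.73 ± 0.48, adjusted p = 0.0418) and also in BTPRZ-T (-2.31 ± 0.49, adjusted p = 0.00973). The BT-T call was lost when any library other than N.2 and BTPRZ-T.4 was left out (adjusted p = 0.0524 to 0.132), and by limma voom (0.0985). Ces2c, an acylcarnitine hydrolase, averaged 122 ± 73.7, 21.6 ± 8.89 and 8.54 ± 5.89 CPM and fell in BTPRZ-T (-3.84 ± 1.00, adjusted p = 0.0269), a call lost without BTPRZ-T.2, BTPRZ-T.3, N.1 or N.4 (0.0519 to 0.0694). In BT-T its value was -2.50 ± 0.94 (adjusted p = 0.129, 0.0464 without N.2 and 0.00956 without BTPRZ-T.4). Ces2g, by contrast, averaged 43.6 ± 10.95 CPM in N, beside 48.0 ± 3.70 in BT-T and 32.0 ± 13.8 in BTPRZ-T and was not called. Per kilobase, Ces2e led in N with 77.6 CPM per kb, and Ces2a led in BT-T with 18.7 and in BTPRZ-T with 12.5.

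**Figure D3:**
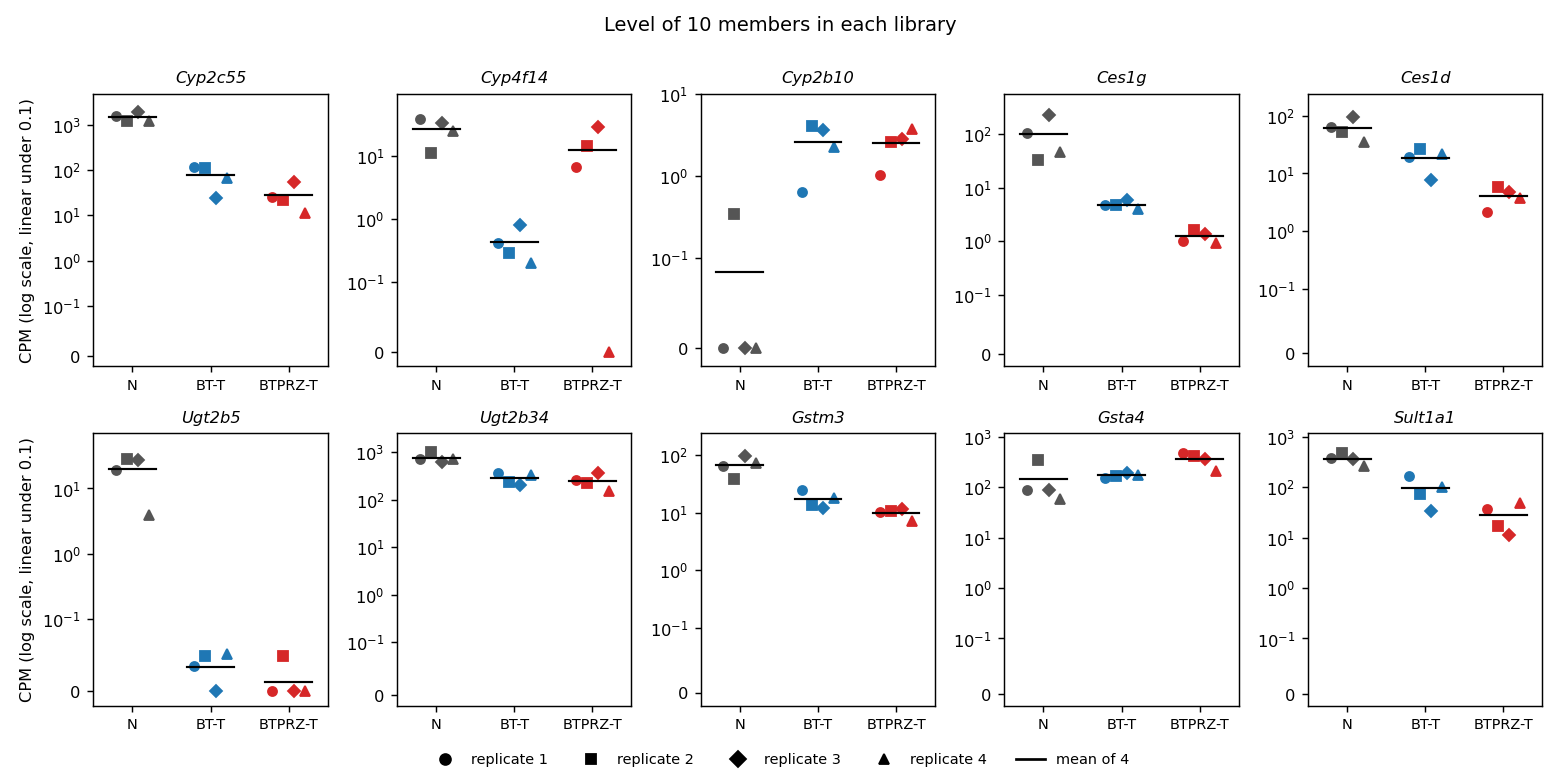
Level of 10 members (y axis, CPM, log scale above 0.1 and linear below) in each library of N, BT-T and BTPRZ-T (x axis); symbols mark the replicate number and bars the mean of 4 libraries. Cyp2c55, Ces1g, Ces1d, Ugt2b5, Ugt2b34, Gstm3 and Sult1a1 are lower in all 8 tumour libraries, Cyp4f14 is under 1 CPM in the 4 BT-T libraries and in BTPRZ-T.4, Cyp2b10 is higher in the tumours, and Gsta4 is higher in all BTPRZ-T libraries than in any BT-T library.

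Among the glucuronosyltransferases, which attach glucuronic acid to bilirubin, bile acids, steroids and phenols, 9 of 12 members were tested. None rose by edgeR's test, also at an unadjusted p under 0.05 (0 genes), nor by DESeq2 or limma voom. All 4 tested Ugt2b genes fell in both tumour groups, and of the 4 tested Ugt1a genes Ugt1a7c was called in BTPRZ-T. Ugt2b5 (chr5:87124960-87140318, minus strand) was close to absent from the tumours. It was at 19.1, 28.1, 27.5 and 3.91 CPM in N, 0.0348, 0.0487, 0 and 0.0507 CPM in BT-T, and 0, 0.0479, 0 and 0 CPM in BTPRZ-T. Those levels stand for 1270 reads in N, only 3 in BT-T and 1 in BTPRZ-T. Ugt2b5 thus met the minimum of 10 reads, and passed the filter on low counts, through N alone. Its lower level in the tumours partly follows from that choice, and its ratios and p-values are read with this limit. The ratio of N to BT-T was 616 with a 95% counting interval of 210 to 2992, and that of N to BTPRZ-T 1540 with an interval of 276 to 60859, intervals that cover counting error only. The fitted log2 fold changes were -8.98 ± 0.90 (adjusted p = 0.000292) and -10.00 ± 0.98 (adjusted p = 0.00016), values that depend on the prior count of the fit. Ugt2b36 (chr5:87065927-87092555, minus strand) had 4.37, 10.8, 4.14 and 1.42 CPM in N, at most 0.209 CPM in BT-T and at most 0.110 CPM in BTPRZ-T, where 2 reads stood against 327 in N (ratio 198, interval 54.4 to 1644). Ugt2b36 likewise passed the filter on low counts through N alone. Both of its calls, at adjusted p = 0.0087 and 0.00361, held with each library left out and under each setting in which the gene was tested; the filter of 2 CPM in 4 libraries left it out. Without N.2 the fold changes of Ugt2b36 were -5.09 and -6.67.

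Ugt2b34 (chr5:86889767-86906937, minus strand) was the main glucuronosyltransferase transcript in all 3 groups, with 78.1% of the Ugt sum in N, followed by 82.4% in BT-T and 84.7% in BTPRZ-T. It was at 716, 1007, 640 and 711 CPM in N, 369, 241, 208 and 335 CPM in BT-T, and 260, 222, 375 and 151 CPM in BTPRZ-T. The tumour groups overlapped with each other and not with N. The fold change was -1.42 ± 0.32 in BT-T (adjusted p = 0.0159, lost at 0.0675 without BT-T.2 and 0.0636 without BT-T.3) and -1.61 ± 0.32 in BTPRZ-T (adjusted p = 0.00678). Ugt2b35 (chr5:87000860-87013275, plus strand) averaged 58.7 ± 26.4, 21.7 ± 7.66 and 10.1 ± 3.50 CPM. It fell by 1.43 ± 0.38 on the log2 scale in BT-T (adjusted p = 0.0382) and by 2.53 ± 0.40 in BTPRZ-T (adjusted p = 0.00194). The BT-T call of Ugt2b35 was lost without BT-T.2, BT-T.3, BT-T.4, N.1 or N.2 (0.0521 to 0.120).

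Genes of the Ugt1a locus on chromosome 1 share their last exons, and reads there cannot be assigned to 1 of them. Ugt1a7c (chr1:88095062-88220002, plus strand), for which 54.6% of exon bases are shared with another gene, averaged 76.2 ± 10.8 CPM in N, beside 29.5 ± 7.87 in BT-T and 23.0 ± 15.5 in BTPRZ-T. It was called in BTPRZ-T (-1.73 ± 0.49, adjusted p = 0.0402), and that call was lost when any 1 of 9 libraries was left out, all but N.2, BTPRZ-T.3 and BTPRZ-T.4 (0.0526 to 0.0918). Ugt1a1, which conjugates bilirubin, averaged 27.1 ± 12.2, 6.17 ± 2.47 and 8.01 ± 10.7 CPM without a call. Ugt1a6a and Ugt1a6b, transferases of simple phenols, averaged 16.2 ± 9.40 and 10.9 ± 7.86 CPM in N and 1.52 to 1.81 CPM in the tumour groups. They were not called with all libraries (adjusted p = 0.054 to 0.109), and without N.2 both were called lower in both tumour groups. Ugt8a, which makes galactosylceramide and is no drug enzyme, was under 1 CPM in each group.

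Of the 21 glutathione transferases 19 were tested: 3 fell in BT-T, 8 in BTPRZ-T and none rose by edgeR's test. At an unadjusted p under 0.05, 1 was higher in BTPRZ-T and 0 in BT-T, and limma voom called 1 higher in BTPRZ-T and DESeq2 none. The mu class accounted for most of these calls, with 2 of 7 tested Gstm genes lower in BT-T and 6 of 7 in BTPRZ-T, followed by the theta class. Gstm5 of the mu class and Gstt1 of the theta class were called in neither group. Gstm1 (chr3:108012255-108017973, minus strand), a main cytosolic transferase for electrophiles, was at 418, 244, 403 and 453 CPM in N, 238, 187, 142 and 230.1 CPM in BT-T, and 114, 127, 132 and 134 CPM in BTPRZ-T. The groups did not overlap, and N.2 was the lowest normal library. The fold change was -0.93 ± 0.25 in BT-T (adjusted p = 0.0376) beside -1.58 ± 0.25 in BTPRZ-T (adjusted p = 0.00199). The Gstm1 call in BT-T was lost without any of the 4 BT-T libraries, BTPRZ-T.2, N.1, N.3 or N.4 (0.0542 to 0.132). Gstm3 (chr3:107963696-107969283, minus strand) was at 63.3, 38.5, 93.1 and 72.6 CPM in N, 24.9, 13.3, 11.9 and 17.9 CPM in BT-T, and 10.4, 10.4, 11.5 and 7.24 CPM in BTPRZ-T, and its calls (-1.98 ± 0.32 and -2.76 ± 0.33, adjusted p = 0.00286 and 0.000488) held throughout.

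Gstm2 and Gstm6 were highest in N.2. Gstm2 was at 105, 217, 102 and 110.3 CPM in N and averaged 70.8 ± 20.1 CPM in BT-T and 44.7 ± 18.8 in BTPRZ-T, where it was called (-1.58 ± 0.36, adjusted p = 0.0136, lost at 0.0572 when N and BTPRZ-T were fitted alone). Gstm6 was at 12.7, 45.9, 11.8 and 12.5 CPM in N and 3.80 to 6.65 CPM in BTPRZ-T (-1.99 ± 0.50, adjusted p = 0.0229), a call lost without BTPRZ-T.2 (0.0593) or BTPRZ-T.4 (0.0566). Without N.2 both stayed lower and called, each at -1.24. Gstm4 and Gstm7, named after their values were seen, fell in BTPRZ-T by 1.18 ± 0.31 and 1.19 ± 0.34 on the log2 scale (adjusted p = 0.0272 and 0.0379). Gstm4 lost its call without BTPRZ-T.1, BTPRZ-T.2, BTPRZ-T.3 or N.1 (0.0509 to 0.0706), and Gstm7 without BT-T.1, BT-T.2, BT-T.4, BTPRZ-T.1, BTPRZ-T.2, BTPRZ-T.3, N.1 or N.3 (0.0502 to 0.0935). Gstm7 also lost its call by limma voom (adjusted p = 0.0667). The mu class genes are close paralogs in 1 cluster on chromosome 3, so reads could be assigned to the wrong copy. Of the theta class, Gstt3 (chr10:75774115-75781414, minus strand) averaged 73.4 ± 8.32, 41.6 ± 5.69 and 30.5 ± 4.09 CPM and fell in both groups (-0.82 ± 0.19 and -1.26 ± 0.19, adjusted p = 0.0189 and 0.00156), with the BT-T call lost without BT-T.2, BT-T.3 or N.3 (0.0552 to 0.0817). Gstt2 was at 240 CPM in N.2 and 25.1 to 27.2 CPM in the other normal libraries, and its call in BTPRZ-T (-2.81 ± 0.80, adjusted p = 0.0393) was lost without N.2, any of the 4 BT-T libraries, BTPRZ-T.2, BTPRZ-T.3 or BTPRZ-T.4 (0.0532 to 0.101). Without N.2 the fold change of Gstt2 was -1.2 (adjusted p = 0.0667).

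None of the 3 tested alpha class genes was called with all libraries, and Gsta3 stood at -1.07 in BT-T and -0.81 in BTPRZ-T. Gsta4 (chr9:78182774-78209349, plus strand), which conjugates the lipid peroxidation product 4-hydroxynonenal, was at 87.0, 354, 90.3 and 60.1 CPM in N, 156, 170.2, 192 and 177 CPM in BT-T, and 475, 427, 375 and 214 CPM in BTPRZ-T. The 2 tumour groups did not overlap, and N.2 lay within the range of BTPRZ-T, while N.1, N.3 and N.4 were below all 8 tumour libraries. With all libraries no difference was called (0.23 ± 0.48 and 1.33 ± 0.49, adjusted p = 0.824 and 0.102, and 1.1 ± 0.49 between the tumour groups, adjusted p = 0.275). Without N.2, Gsta4 was higher in BT-T (1.13 ± 0.26, adjusted p = 0.0128), in BTPRZ-T (2.23 ± 0.27, adjusted p = 0.000237) and in BTPRZ-T against BT-T (1.1 ± 0.23, adjusted p = 0.0116).

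Gsto1 (chr19:47854970-47864790, plus strand), a thiol transferase that also reduces dehydroascorbate, was at 308, 584, 298 and 271 CPM in N, 346, 255, 285 and 308 CPM in BT-T, and 556, 416, 450.3 and 339 CPM in BTPRZ-T. It was not called with all libraries (0.27 ± 0.28 in BTPRZ-T, adjusted p = 0.626) and was higher in BTPRZ-T without N.2 (0.59 ± 0.19, adjusted p = 0.0348). Per kilobase, Gsto1 led the family in N (309 CPM per kb) and in BT-T (252), and Gsta4 in BTPRZ-T (381, beside 373 for Gsto1 and 98.4 for Gstm1). Pi class Gstp1 averaged 46.5 ± 21.7, 29.4 ± 1.098 and 51.6 ± 12.4 CPM, and was called higher in BTPRZ-T without N.2 (0.53) and not with it (0.15 ± 0.29, adjusted p = 0.814).

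**Figure D4:**
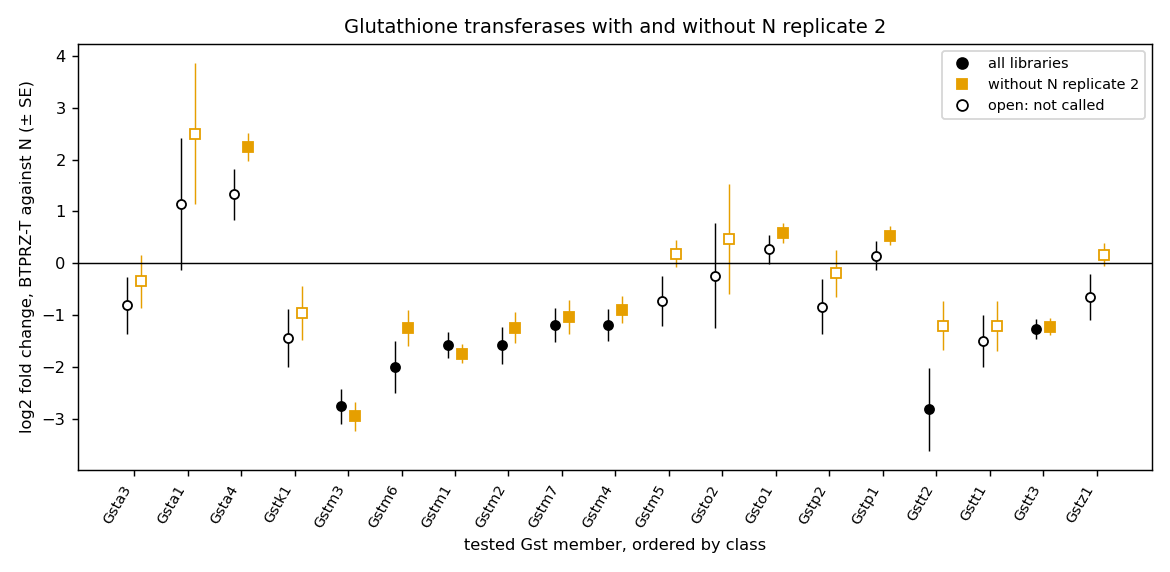
Fold change in BTPRZ-T against N (y axis, log2, ± SE) of the 19 tested glutathione transferases (x axis, by class) with all libraries (black circles) and without N.2 (orange squares); filled symbols were called at adjusted p under 0.05. Gsta4 moves from 1.33 to 2.23 and Gsto1 from 0.27 to 0.59 and both become called, while Gstm3 stays at -2.76 and -2.95.

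The place of N.2 differed by family, and the families differ in transcript length. For 76 tested members with a known length, the log2 level in N.2 minus the mean of N.1, N.3 and N.4 (pseudocount 0.5) had a median of 0.07. Of 19 Gst genes, whose median longest transcript has 1289 bases, 17 were above 0, with a median of 1.13. Of 11 Ces genes, with a median of 2073 bases, 10 were below 0, with a median of -0.91. Across the 76 genes the difference and the length had a Spearman correlation of -0.35, given as a description, since genes of 1 library share its depth. Within the families it was -0.16 for Cyp, -0.05 for Ces, -0.03 for Ugt, -0.17 for Gst and 0.18 for Sult. The value over all 76 genes thus does not separate length from family. The cause of the difference was not tested.

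**Figure D5:**
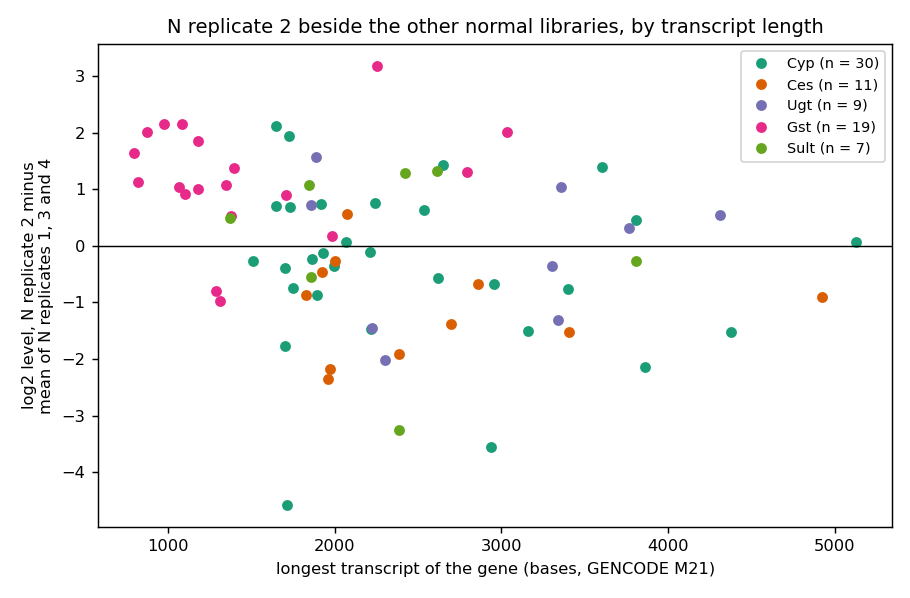
Log2 level in N.2 minus the mean of the other normal libraries (y axis) against the length of the longest annotated transcript in bases (x axis) for 76 tested members, coloured by family. Most Gst genes (17 of 19) lie above 0 among the shorter transcripts, and most Ces genes (10 of 11) below 0.

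Of the sulfotransferases, which add sulfate to phenols, steroids and catecholamines, 7 of 8 members were tested. In BT-T 3 fell and 1 rose, and in BTPRZ-T 3 fell. Sult1a1 (chr7:126672865-126676432, minus strand), the main phenol sulfotransferase, was at 382, 475, 363 and 269 CPM in N, 171, 73.8, 34.7 and 104 CPM in BT-T, and 36.7, 16.9, 11.3 and 49.0 CPM in BTPRZ-T. All normal libraries were above all tumour libraries, and the tumour groups overlapped. The fold change was -1.96 ± 0.52 in BT-T (adjusted p = 0.0354, lost at 0.0622 to 0.118 without BT-T.2, BT-T.3, BT-T.4, N.1 or N.3) and -3.71 ± 0.56 in BTPRZ-T (adjusted p = 0.00155). Its share of the Sult sum was 38.3% in N and 11.1% in BTPRZ-T. Sult1d1, which prefers catecholamines, then led the family with 41.0%.

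Sult2b1 (chr7:45729983-45784669, minus strand), which sulfates cholesterol and pregnenolone, was at 27.3, 20.8, 24.0 and 40.3 CPM in N, 10.5 to 11.99 CPM in BT-T, and between 11.9 and 16.4 CPM in BTPRZ-T. It fell in BT-T (-1.32 ± 0.25, adjusted p = 0.00636) and also in BTPRZ-T (-0.98 ± 0.25, adjusted p = 0.0234), the latter call lost without BTPRZ-T.1, BTPRZ-T.3, N.1 or N.4 (0.0560 to 0.0689). Sult1c2 (chr17:53829637-53846339, minus strand) averaged 89.2 ± 41.6, 35.0 ± 11.3 and 22.7 ± 3.88 CPM. It fell in both (-1.35 ± 0.34 and -1.98 ± 0.35, adjusted p = 0.0294 and 0.00352), and its BT-T call was lost without BT-T.2, BT-T.3, BT-T.4, N.1 or N.3 (0.0536 to 0.0881). Sult1d1 and Sult1b1, a sulfotransferase of thyroid hormones, averaged 286 ± 164 and 192 ± 108 CPM in N, and 66.9 to 105 CPM in the tumour groups, without a call. In BT-T they stood at -1.64 ± 0.51 (adjusted p = 0.069, called without BTPRZ-T.4 or N.4) and -1.52 ± 0.44 (adjusted p = 0.0507, called without BTPRZ-T.1, BTPRZ-T.4 or N.4). Sult4a1 was not called with all libraries and was called lower in BTPRZ-T without N.2 (-3.87, adjusted p = 0.0302).

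Sult5a1 was the single sulfotransferase that rose. It was at 0.115, 0, 0.0591 and 0.135 CPM in N, 0.488, 1.22, 1.08 and 1.93 CPM in BT-T, and 0, 0.287, 0.0551 and 0.0436 CPM in BTPRZ-T. BT-T lay above both other groups, which overlapped. Its fold change in BT-T was 3.81 ± 1.08 (adjusted p = 0.0472), a call lost when any of the 4 N or 4 BT-T libraries or BTPRZ-T.3 was left out (0.0518 to 0.133).

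Of the 23 members too low to test with all libraries, several were read mostly or only in normal colon. A gene read mostly in 1 group met the minimum of 10 reads through that group, so its lower level elsewhere partly follows from the choice of members. Reads are pooled over the 4 libraries of a group, and their ratios cover counting error only. Cyp2e1, which oxidises ethanol and small solvents, had 162 reads in N, 5 in BT-T and none in BTPRZ-T. Set against a floor of 3 reads in the group, its level in BTPRZ-T was at least 65.5-fold lower than in N. Without N.2, Cyp2e1 passed the filter, and edgeR's test called it lower in BT-T (log2 fold change -5.72, adjusted p = 0.00589). It was also called lower in BTPRZ-T (adjusted p = 0.00131), where it had no read, so no size is given. Cyp3a11 and Cyp3a44, of the family that oxidises the widest range of drugs, had 15 and 24 reads in N and none in either tumour group. Both were thus members through N alone, and no ratio is given for them. All 15 reads of Gstt4 were in N.2 (1.02 CPM), with none in the other normal libraries or the tumours. Cyp2c40 had 69 reads in N, most of them in N.2 (3.65 CPM, against 0.230 to 0.405 in the other normal libraries), and none in BTPRZ-T. Going the other way, Sult1e1, the oestrogen sulfotransferase, had 1 read in N, 22 in BT-T and none in BTPRZ-T, and BT-T.4 was the highest library with 0.912 CPM.

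The tumour groups were also set against each other. Of the 78 tested members, Ces1d was called lower in BTPRZ-T and none was called higher by edgeR's test (4 at an unadjusted p under 0.05), where 0.599% of all tested genes were called lower and 0.155% higher. The median fold change of the members was -0.52, beside -0.03 over all genes, and all 11 Ces genes were below 0, with a median of -1.51. The counts changed when N.2, which is in neither group, was left out. The single fit takes its estimate of the spread from all 12 libraries, N.2 among them. The cause of the change was not tested. Without N.2, 11 members were called lower and 5 higher. The lower ones were Ces1c, Ces1d, Ces1g, Sult1a1, Sult5a1, Cyp2c69, Cyp2f2, Cyp2d22, Ugt2b35, Gstm1 and Gstm3, and the higher ones were Gsta4, Gsto1, Gstp1, Gstz1 and Cyp4f14. The largest of these were Cyp4f14 (4.82 ± 1.15, adjusted p = 0.0172) and Ces1c (-4.34 ± 1.00, adjusted p = 0.0154), and the same values with all libraries were 4.82 ± 1.2 (adjusted p = 0.0853) and -4.34 ± 1.21 (adjusted p = 0.105). DESeq2 called 1 member higher and 9 lower, and limma voom called none, in this comparison. These counts without N.2 and by other tests have no share of all genes beside them.

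Of 19 tested genes that sense foreign compounds or regulate these enzymes, 1 was higher (5.26%) and 2 lower (10.5%) in BT-T, and 1 was lower (5.26%) in BTPRZ-T. Over all tested genes, 5.67% were called higher and 2.9% lower in BT-T, and 5.66% higher and 6.18% lower in BTPRZ-T. The median fold changes of the 19 genes were -0.41 and -0.28, and 16 and 15 of them were below 0. Without N.2, 1 was higher and 4 lower in BT-T, and 6 were lower in BTPRZ-T. Ppara, a nuclear receptor for fatty acids, was at 54.2, 10.2, 81.4 and 24.2 CPM in N, 8.16 to 14.1 CPM in BT-T, and between 3.55 and 6.41 CPM in BTPRZ-T, so that N.2 lay in the range of BT-T. It fell in BT-T (-1.88 ± 0.51, adjusted p = 0.0396) and also in BTPRZ-T (-3.08 ± 0.54, adjusted p = 0.00329). Nr1h4, the bile acid receptor, averaged 67.8 ± 32.6 CPM in N, beside 25.4 ± 5.91 in BT-T and 47.1 ± 17.2 in BTPRZ-T and fell in BT-T (-1.42 ± 0.37, adjusted p = 0.0322). Among the calls in BT-T, that of Ppara was lost without any BT-T library, BTPRZ-T.2, BTPRZ-T.3, N.1 or N.3 (0.0508 to 0.126), and that of Nr1h4 without any BT-T library or BTPRZ-T.2 (0.0505 to 0.110). By limma voom the Ppara call in BT-T was also lost (adjusted p = 0.0977). The xenobiotic receptor Nr1i2 averaged 58.7 ± 12.9, 44.2 ± 6.19 and 36.0 ± 17.2 CPM and the antioxidant regulator Nfe2l2 233 ± 49.3, 159 ± 8.45 and 165 ± 8.19 CPM, and neither was called with all libraries. Without N.2, Nfe2l2 was called lower in both groups (-0.68 and -0.62, adjusted p = 0.00681 and 0.00565).

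Of 19 genes that supply electrons and cofactors, 3 fell in BT-T (15.8%), and 5 fell (26.3%) and 1 rose (5.26%) in BTPRZ-T. Without N.2 the counts were 6 lower in BT-T, and 8 lower and 1 higher in BTPRZ-T. Ugdh, which makes the UDP-glucuronate that the Ugt enzymes use, was at 413, 168, 552 and 402 CPM in N, 104, 80.2, 65.1 and 94.9 CPM in BT-T, and 56.9, 67.2, 80.5 and 56.0 CPM in BTPRZ-T. The normal libraries lay above all tumour libraries, and the fold changes were -2.16 ± 0.33 and -2.56 ± 0.34 (adjusted p = 0.00221 and 0.000741). Ugp2, a step earlier in that pathway, averaged 270.2 ± 122 CPM in N and 127 ± 15.9 and 139 ± 9.10 in the tumours (-1.09 ± 0.28 and -0.96 ± 0.28, adjusted p = 0.0295 and 0.0419). Papss2, which makes the sulfate donor of the Sult enzymes, averaged 549 ± 282, 217 ± 39.8 and 134 ± 27.0 CPM and fell in BTPRZ-T (-2.04 ± 0.41, adjusted p = 0.00792). Its value in BT-T was -1.34 ± 0.40 (adjusted p = 0.0617, and 0.000633 without N.2). Srxn1, an antioxidant target gene, fell in both, by 0.74 ± 0.20 and 0.80 ± 0.20 on the log2 scale (adjusted p = 0.0420 and 0.0242), while Slc7a11, the cystine importer that feeds glutathione synthesis, rose in BTPRZ-T (2.14 ± 0.62, adjusted p = 0.0417). Por, the electron donor of the P450 enzymes, averaged 194 ± 75.4, 194 ± 31.2 and 211 ± 72.1 CPM and was not called. Single left-out libraries ended the calls of Ugp2 in BT-T (BT-T.1, BT-T.2, BT-T.3, BT-T.4 or N.1, 0.0518 to 0.105) and in BTPRZ-T (any but N.2 and N.4, 0.0576 to 0.105), of Srxn1 in BT-T (9 libraries, all but N.2, BTPRZ-T.3 and BTPRZ-T.4, 0.0512 to 0.147) and BTPRZ-T (BTPRZ-T.1, BTPRZ-T.4, N.1 or N.4, 0.0549 to 0.0665), and of Slc7a11 (BT-T.2, BT-T.3, BT-T.4, BTPRZ-T.2, BTPRZ-T.3, N.1 or N.3, 0.0572 to 0.124).

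Of 25 other drug-metabolising enzymes, 1 rose (4%) and 4 fell (16%) in BT-T, and 2 rose (8%) and 5 fell (20%) in BTPRZ-T. Without N.2, 7 fell in BTPRZ-T. Nqo1, a quinone reductase, was at 35.4, 76.2, 45.2 and 42.4 CPM in N, 8.31 to 14.4 CPM in BT-T, and between 7.86 and 25.1 CPM in BTPRZ-T, and fell in both (-2.01 ± 0.37 and -1.70 ± 0.37, adjusted p = 0.00549 and 0.0109). Gusb, the glucuronidase that removes what the Ugt enzymes add, rose in both. It was at 36.5 to 54.6 CPM in N, 95.6 to 114 CPM in BT-T, and between 97.997 and 180.1 CPM in BTPRZ-T, with no overlap between N and the tumours (1.2 ± 0.23 and 1.38 ± 0.24, adjusted p = 0.00729 and 0.0029). Ephx1, the microsomal epoxide hydrolase, averaged 46.3 ± 6.02, 62.9 ± 13.04 and 133 ± 32.1 CPM and rose in BTPRZ-T (1.53 ± 0.23, adjusted p = 0.00155). Its value between the tumour groups was 1.08 ± 0.23 (adjusted p = 0.0516, and 0.00751 without N.2). Aldh1a1, an aldehyde dehydrogenase of retinal, fell in BTPRZ-T from 186 ± 87.3 to 14.9 ± 12.4 CPM (-3.64 ± 0.69, adjusted p = 0.00532). Tpmt, the thiopurine methyltransferase, fell in both (-1.38 ± 0.33 and -1.59 ± 0.34, adjusted p = 0.0234 and 0.00985), and Cbr1, a carbonyl reductase, in BT-T (-1.49 ± 0.40, adjusted p = 0.0365). Cbr1 was at 263 CPM in N.2 and 65.1 to 94.2 CPM in the other normal libraries, and without N.2 its fold change was -0.82 (adjusted p = 0.0148). In BT-T, Tpmt lost its call without BT-T.2, BT-T.3 or BT-T.4 (0.0579 to 0.0851) and Cbr1 without any BT-T library or BTPRZ-T.2 (0.0548 to 0.111). The Tpmt call in BTPRZ-T was lost when N and BTPRZ-T were fitted alone (edgeR's test, adjusted p = 0.0546).

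Of 18 tested transporters of drugs and conjugates, 1 rose (5.56%) and 4 fell (22.2%) in BT-T, and 2 rose (11.1%) and 3 fell (16.7%) in BTPRZ-T. In BT-T the lowest fold changes were those of Slc51a and Slc51b, the 2 subunits of the basolateral bile acid and steroid exporter. Slc51b was at 14.2, 53.3, 8.92 and 20.99 CPM in N, 0.583 to 1.95 CPM in BT-T, and between 2.37 and 4.65 CPM in BTPRZ-T (-4.28 ± 0.60 and -2.88 ± 0.56, adjusted p = 0.00129 and 0.00648), and without N.2, its highest normal library, its fold changes were -3.55 and -2.15, still called. Slc51a was at 10.1, 10.4, 23.0 and 8.37 CPM in N, at most 0.125 CPM in BT-T, and at 0, 3.35, 2.59 and 0 CPM in BTPRZ-T, and was called in BT-T (-7.51 ± 1.55, adjusted p = 0.0101) but not in BTPRZ-T (-3.12 ± 1.2, adjusted p = 0.117). The apical exporter Abcg2 averaged 83.7 ± 23.1, 30.8 ± 6.07 and 13.2 ± 7.38 CPM and fell in both (-1.44 ± 0.35 and -2.66 ± 0.37, adjusted p = 0.0253 and 0.00103), with the BT-T call lost without BT-T.2, BT-T.3, BT-T.4, N.1 or N.3 (0.0539 to 0.0895). Slco2b1, an organic anion importer named after its values were seen, was the third transporter that fell in BTPRZ-T (-1.43 ± 0.37, adjusted p = 0.0265). Abcc4, a basolateral exporter of conjugates, rose in both, from 35.1 ± 10.3 CPM to 117 ± 33.3 and 97.1 ± 32.7 (1.74 ± 0.33 and 1.47 ± 0.32, adjusted p = 0.006 and 0.0121). Abcb1b, a multidrug exporter, rose in BTPRZ-T from 1.43 ± 1.38 to 11.5 ± 5.34 CPM (3.00 ± 0.66, adjusted p = 0.0119, lost at 0.0535 when these 2 groups were fitted alone). Its value in BT-T was 1.73 ± 0.63 (adjusted p = 0.117), and 2.64 without N.2 (adjusted p = 0.00776). The paralog Abcb1a averaged 653 ± 499, 219 ± 63.8 and 207 ± 184 CPM without a call, and was called lower in both groups without N.2 (-1.95 and -2.03, adjusted p = 0.0374 and 0.0172). Without N.2, 2 of 19 tested transporters were higher and 6 lower in BT-T, and 2 higher and 10 lower in BTPRZ-T. Between the tumour groups, edgeR's test called 0 genes of these 4 lists. At an unadjusted p under 0.05 there were 2 sensors, 0 cofactor genes, 9 other enzymes and 7 transporters, and DESeq2 called 0, 0, 5 and 3. Without N.2, edgeR's test called 1 sensor, 2 cofactor genes, 3 other enzymes and 1 transporter higher in BTPRZ-T than in BT-T, and 3, 1, 3 and 3 lower.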

How the data were processed

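The 12 libraries of mouse colon and colon tumours (3 groups of 4, grouped by their labels) were analysed from the authors' deposited per-gene read count files. Per the labels' protocols, libraries were poly-A selected, stranded and read from a single end. Per the submitters' processing notes, the tools named include bcl2fastq 2.20, STAR 2.4.2a, HTSeq, edgeR 3.16.5 and limma, with genome build mm10. The annotation is not stated in the labels. The deposited counts of the fourth column were used, since the other strand held 0.819 to 0.994% of reads. Reads overlapping several genes are not counted, which can lower genes with shared exons, and close paralogs can exchange reads.

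Genes were filtered by edgeR's filterByExpr, scaled by TMM and tested with edgeR 4.0.16's quasi-likelihood test (robust, R 4.3.3) in a single fit of all 12 libraries, with Benjamini-Hochberg adjustment over 14860 genes and a threshold of 0.05. The common biological coefficient of variation was 0.501. SE is the absolute log2 fold change divided by the square root of F. The fit was tested on simulated data. Depth was 15732004 to 26052772 gene reads per library, and counting intervals are exact at 95%. Positions come from GENCODE M21 (GRCm38), which matched 99 of 101 members.

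The members and gene lists were chosen with earlier results of these data known. Genes were named by a rule: per family and comparison, up to 5 called members of lowest adjusted p, the 3 tested members per family of highest mean CPM, and per further gene list up to 4 called genes per comparison. Genes outside it are given as examples chosen after their values were seen, among them the Cyp2c, Cyp2d, Cyp2e1, Cyp3a, Cyp4f and Ugt1a genes without a call, Cyp4b1, Ces2b, Ces2f, Ces2g, Gsta3, Gstm5, Gstp1, Gstt1, Sult4a1, Cdkn2a, Hnf4a, Nr1i2, Nfe2l2, Por and Abcb1a. Alternatives were DESeq2 1.42.0, limma 3.58.1 voom, other scalings, filters and columns, a replicate block and left-out libraries.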

Additional observations from a re-analysis of the deposited data

Results flagged for a closer look

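In 16 of 171 groups of 4 libraries, 1 library lay so far from the other 3 that its gap to the nearest of them exceeded Dixon's 95% critical value. For normally distributed values, chance alone marks about 1 in 20 such groups. Family sums and their own members were counted together, so the groups are not independent and the 16 were not tested against that rate. Where the other 3 libraries had no read, any read in the remaining library passes. This was so for Cyp2b10 in N and for Ugt2b5 and Ugt2b36 in BTPRZ-T. Of the 16, 10 were N.2, which was the highest normal library in 9 and the lowest in 1. The lowest was the summed Ces level, 348.8 CPM in N.2. The highest were the summed Ugt level (1228 CPM), the summed Gst level (2410.0 CPM), Cyp2c69 (73.8 CPM), Cyp2b10 (0.338 CPM), Gstm2 (217 CPM), Gstm6 (45.9 CPM), Gsto1 (584 CPM), Gsta4 (353.5 CPM) and Cbr1 (263.1 CPM).

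Among tumours, Ugt2b5 stood apart in BTPRZ-T.2 (0.0479 CPM, a single read), Ugt2b36 in BTPRZ-T.3 (0.110 CPM), Gusb in BTPRZ-T.4 (180.1 CPM), and Cbr1 in BT-T.1 (54.1 CPM) and BTPRZ-T.1 (93.4 CPM). In normal colon, Slc51a stood apart in N.3 (23.0 CPM).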

How the results depend on the processing

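The members called in BT-T against N numbered 23, and 40 by DESeq2, 15 with the replicate block and 49 without N.2, BTPRZ-T.1 and BTPRZ-T.4 together, where the fewest genes were detected. Leaving out 1 library gave 11 (without BT-T.2 or BT-T.3) to 35 (without BTPRZ-T.4). In BTPRZ-T against N, 29 were called, and 17 when these 2 groups were fitted alone and 46 without those 3. The replicate block gave 22 there, and leaving out 1 library 22 to 41. Between the tumour groups 1 was called, and 9 with these 2 groups alone, 10 by DESeq2, 0 by limma voom, 0 with the replicate block and 25 without those 3. Leaving out 1 library gave 0 to 16 (16 without N.2). The labels do not say that the numbers pair libraries, so the main fit had no block. Same-numbered libraries had correlations of -0.297 to 0.315, which cannot decide the question, since libraries of different number were not compared. Of 82 calls on single genes, 43 held under every alternative in which the gene was tested, and of 92 values without a call 48 were called under at least 1. Fitting the 2 compared groups alone ended 27 of the 82 calls, and the replicate block 26. Limma voom ended 12. In BT-T these were Cyp4f14, Cyp1b1, Ces2a, Ppara and Cbr1. In BTPRZ-T they were Cyp2c68, Gstm6, Gstm7, Gstt2, Ugp2 and Slc7a11, and between the tumour groups Ces1d. Without a filter 5 calls were lost, and with upper quartile scaling 2, Gstm7 and Ugp2 in BTPRZ-T. The only value that changed direction with a call was Cyp2j6 in BTPRZ-T, which was 0.84 without those 3. The cause of these differences was not tested. The share of all genes called also depends on the setting and is not given here, so the counts do not set the members apart from other genes. Scaling by DESeq2's method and the unstranded column changed no call. The summed family levels moved by less than 1 SD. Under the 3 scalings, the median log2 fold change of all genes in BTPRZ-T against N was -0.10, -0.15 and -0.03. Depth limits the 23 untested members.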
